A study of Mus musculus with 71 samples.

Results

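In cultured mouse spinal cord progenitors, 2336 chromatin intervals were near their day 5 accessibility on day 9 in wild type (WT) cells without NFIA protein (NFIAn), open on day 11 in WT cells with it (NFIAp), and much less open in mutant (MUT) NFIAn cells of day 11. They are 1.50% of the 155738 intervals in the authors' table, and all 2336 passed the filter on low values. They were selected on measured values: the WT mean over the populations p0-p1, p2 and pMN had to move by less than 0.5 between day 5 and day 9, to rise by at least 1.5 between day 9 and day 11, and to lie at least 1 above the MUT mean on day 11. The WT means of days 5 and 9 are those of NFIAn and that of day 11 is of NFIAp, so day and fraction change together in the WT step and cannot be told apart. The means of the 3 WT populations on day 11 also had to lie within 1 of each other. All of these are differences of log2(value + 5), where a value is a normalised read count and 5 is a pseudocount. The members are called late-opening intervals below. A set of 649 intervals that met the same conditions in WT but whose MUT mean on day 11 lay within 0.5 of WT serves as a comparison, and is called the WT-level set.

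ATAC-seq marks open chromatin, because the transposase Tn5 inserts sequencing adapters where DNA is not packed on nucleosomes, and many such sites are promoters and enhancers. In the ventral spinal cord, progenitors sit in domains stacked along the dorsal to ventral axis; pMN gives rise to motor neurons and later to oligodendrocyte precursors, and p0-p1 and p2 give rise to interneurons. With time these progenitors change from making neurons to making glia, and NFIA is a transcription factor that comes on in neural progenitors around this change and is needed for it.

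Mouse embryonic stem cells were differentiated with bFGF, CHIR99021, retinoic acid (RA) and Smoothened Agonist (SAG), fixed, stained for intracellular markers, sorted, and profiled with CaTS-ATAC, a form of ATAC-seq for cells sorted on such markers. The signs n and p are read here as without and with NFIA. MUT libraries were NFIAn in each population on day 5, day 7 and day 11 (3 libraries per population) and day 9 (2 per population). WT libraries were NFIAn on day 5 (2 per population), day 7 (3 per population) and day 9 (2 libraries of pMN and 3 of each other population), and NFIAp on day 9 in p2 and pMN and on day 11 in each population (3 libraries each). Neither the mutated gene nor the cell line is named in the labels, so whether the mutation touches NFIA itself, and whether MUT is 1 clone, is not given in the sources used here. On day 11, and wherever MUT is set against WT NFIAp on day 9, genotype and NFIA fraction change together and cannot be told apart. The origin of the replicates is not stated, so a p-value here is about differences from library to library, which may be technical.

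The 71 libraries held 20034731 to 31315134 reads in the intervals. The table numbers its intervals and gives no positions, so the late-opening intervals are named by number, and genes and sequences at them were not analysed here. In 3 libraries the values were taken to go against the labels, and these are called doubted below. A run of 5 consecutive intervals with 142 to 375 summed normalised reads in other WT libraries and at most 1.14 in other MUT libraries held 263 in the library labelled MUT D7 pMN replicate 3 and 0 in the one labelled WT D7 pMN replicate 3. Replicate 2 of the libraries labelled WT D9 p2 NFIAp was taken to lie with pMN rather than p2 in its overall profile. That reading was set beforehand, and no measure of it is given here. None of the 3 was used to choose the late-opening intervals, and values without them stand beside the counts that use them. In a bulk library, fewer cells with an open site and less opening per cell give the same lower value.

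The rule fixed a large WT step and a large shortfall, and their sizes are described here without a test. In the late-opening intervals the WT rise from the day 9 NFIAn fraction to day 11 had a median of 2.08 on the log2 scale (1.50 to 5.44), and the difference MUT minus WT on day 11 had a median of -1.88, with -5.32 as the lowest. Set against the WT NFIAn fraction of day 9, the MUT mean on day 11 was higher by a median of 0.20. It was less than 0.5 above that level in 1723 intervals, 0.5 to 1 above it in 441 and at least 1 above it in 172, and it was below it in 729 of the 1723. Most of these intervals in MUT on day 11 were close to the WT level from before the step, while some had moved part of the way. The rule bounds this split, because MUT had to lie at least 1 below WT. The 1047 intervals with a WT rise under 2 could therefore not reach 1 above that level. How far MUT moved cannot be read from this split apart from the selection. The members were 66.3% of the 3526 intervals that met the WT conditions; 513 others had a MUT difference between -1 and -0.5, and 28 lay at least 0.5 above WT. Just inside the limit on MUT, Interval_138840 had a difference of -1.00123, and just outside it Interval_18869 had -0.99985, so the edge of the list is arbitrary at this scale.

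**Figure D1:**
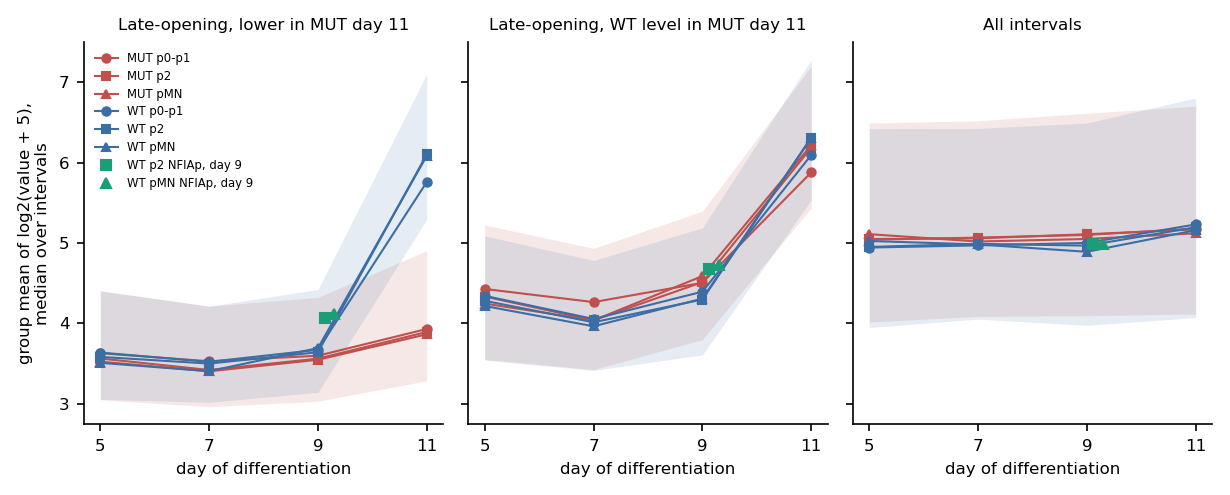
Median over intervals of the group mean of log2(value + 5) (vertical axis) against day of differentiation, for late-opening intervals (left), the WT-level set (middle) and all intervals (right), with MUT in red and WT in blue, the WT day 9 NFIAp groups in green (drawn just right of day 9) and bands for the quartiles over intervals in p2. On day 11 the late-opening medians were 3.93, 3.89 and 3.87 in MUT p0-p1, p2 and pMN, against 5.76, 6.10 and 6.09 in WT, while the 2 genotypes lay together on days 5 and 7.

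The shortfall was present in each population in most intervals, which the rule favours, because it fixed the mean over the same populations. The counts by population are a description and no support beyond the rule. A difference MUT minus WT of -1 or lower was found for p0-p1 in 2051 intervals (87.8%), for p2 in 2275 (97.4%) and for pMN in 2285 (97.8%), and 1954 (83.6%) had it together with a WT rise of at least 1 in all 3 populations. Within WT on day 11 the level was lowest in p0-p1 in 1710 intervals (73.2%), and it was highest in p2 in 1053 and in pMN in 1036. How often this holds over all intervals was not counted. In the WT-level set the median was likewise lowest in p0-p1, at 6.10 on the log2 scale, against 6.31 in p2 and 6.31 in pMN. Over all intervals the medians were 5.23, 5.20 and 5.16 in p0-p1, p2 and pMN. The rule kept the WT populations within 1 of each other on day 11, so larger differences are not in the list.

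The summed value of all late-opening intervals shows the same course library by library. On day 5 the sums were 41238 to 47030 normalised reads in MUT (median 43522, 9 libraries) and 40385 to 44805 in WT (median 42694, 6 libraries). On day 7 they were 33236 to 40068 in MUT (median 36392, 9 libraries) and 30363 to 38769 in WT (median 34545, 9 libraries). On these days the ranges of the genotypes overlapped. On day 9 the MUT sums were 39318 to 41644 (median 40574, 6 libraries), against 42200 to 92826 in WT NFIAp (median 63222, 6 libraries) and 40645 to 52490 in WT NFIAn (median 42188, 8 libraries). Every MUT library of day 9 was below every WT NFIAp library. Without p2 replicate 2, the WT NFIAp sums were 59352 to 92826. On day 11 the sums were 58448 to 69891 in MUT (median 63348) and 188775 to 346471 in WT (median 279480), 9 libraries each, a gap that the rule selected for. The same intervals took 0.249% to 0.298% of all normalised reads of a library in MUT on day 11 and 0.754% to 1.26% in WT. The lowest WT library of that day was p0-p1 replicate 3.

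**Figure D2:**
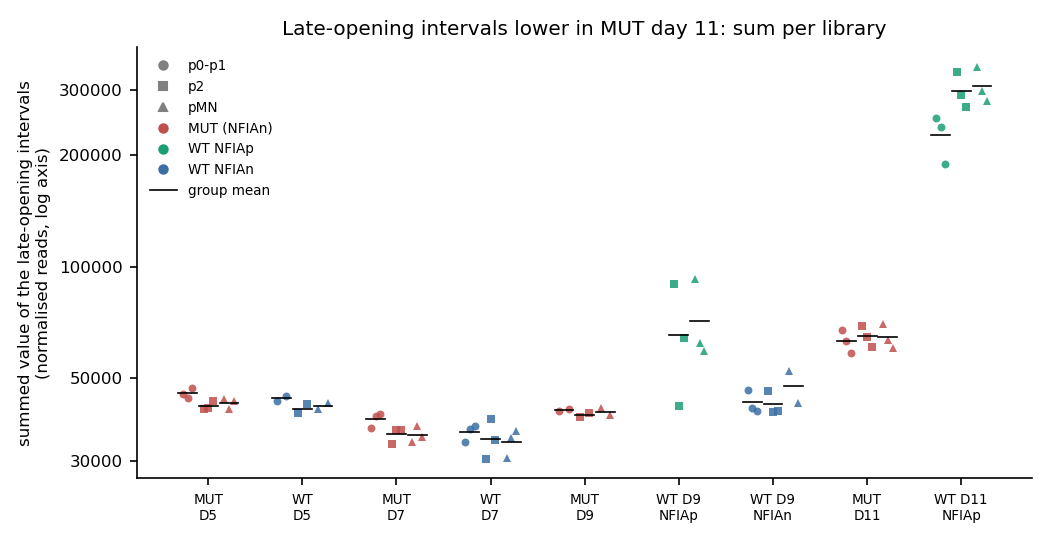
Summed normalised reads of the 2336 late-opening intervals in each library (log axis), by day with MUT left of WT; marker shape gives the population, colour the genotype and NFIA fraction, and black bars the group means. The 9 MUT libraries of day 11 sit between 58448 and 69891, and 5 of the 6 WT NFIAp libraries of day 9 sit above all WT NFIAn and MUT libraries of that day.

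Within the day 9 WT NFIAp groups the replicates spread widely, and this spread matters for each comparison that uses them. In p2 the sums were 90090, 42200 and 64352 normalised reads in replicates 1, 2 and 3, and in pMN they were 92826, 62093 and 59352. Replicate 1 was the highest in both populations, and p2 replicate 2, the library taken to lie with pMN, was at the level of the NFIAn fraction. What sets replicate 1 apart was not tested.

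The largest WT steps show the size of the contrast on day 11. Interval_71648 had 68.1 to 126 normalised reads in MUT on day 11 (median 101) and 574 to 1503 in WT (median 1060.5, 9 libraries each). Its MUT level was above the 9.30 to 23.1 normalised reads of MUT on day 9, so this interval opened in part. Interval_27642 behaved alike, with 37.3 to 78.3 in MUT (median 60.7) and 530 to 1108 in WT (median 797). In Interval_87071, by contrast, MUT libraries of day 11 held 0 to 5.73 normalised reads (median 3.92), against 221 to 539 in WT (median 270). The highest MUT library of any day held 7.96 there. In Interval_125049 the values were 6.54 to 17.4 in MUT (median 9.80) and 349 to 882 in WT (median 521). In Interval_27492 they were 15.7 to 31.5 in MUT (median 20.6) and 461 to 923 in WT (median 776). These 2 intervals had on day 11 in MUT about what MUT libraries of day 9 held, which was 4.93 to 25.1 and 9.65 to 21.7. These 5 intervals were named for the values that the rule used.

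The rule used neither the MUT libraries of day 9 nor the WT NFIAp libraries of day 9. The question is whether the difference selected on day 11 was already present on day 9, when MUT NFIAn cells are set against WT cells that carry NFIA. Over the mean of p2 and pMN, 340 of the 2336 late-opening intervals (14.6%) were called lower in MUT, against 1.7% of all 155734 intervals tested (called by limma at a log2 difference of 1 or more and a Benjamini-Hochberg adjusted p below 0.05). None was called higher in MUT by limma, where the share over all intervals was 3.05%; 39 had an unadjusted p under 0.05 in that direction, and edgeR called 1. The median difference was -0.44, and 87.5% of the late-opening intervals were below 0, beside a median of 0.01 over all intervals. In the WT-level set 3 of 649 were called lower and the median was -0.19. The sum over the WT-level set was 20524 to 26759 normalised reads in MUT and 17405 to 37851 in WT NFIAp on day 9, ranges that overlapped. By the values alone, 343 late-opening intervals (14.7%) had every MUT library below every WT NFIAp library in both populations, beside 5.41% of all intervals. Without the 3 doubted libraries these were 661 (28.3%), beside 7.48% of all intervals. The limma test took the 4 MUT and 6 WT libraries as independent, although same-numbered libraries of p2 and pMN deviate together. Its p-values, also for the intervals named below, take no account of that. A fit of only the groups compared called 285 lower (12.2%, beside 1.49% of all intervals). A replicate block across all libraries gave 367 (15.7%, beside 1.86%).

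**Figure D3:**
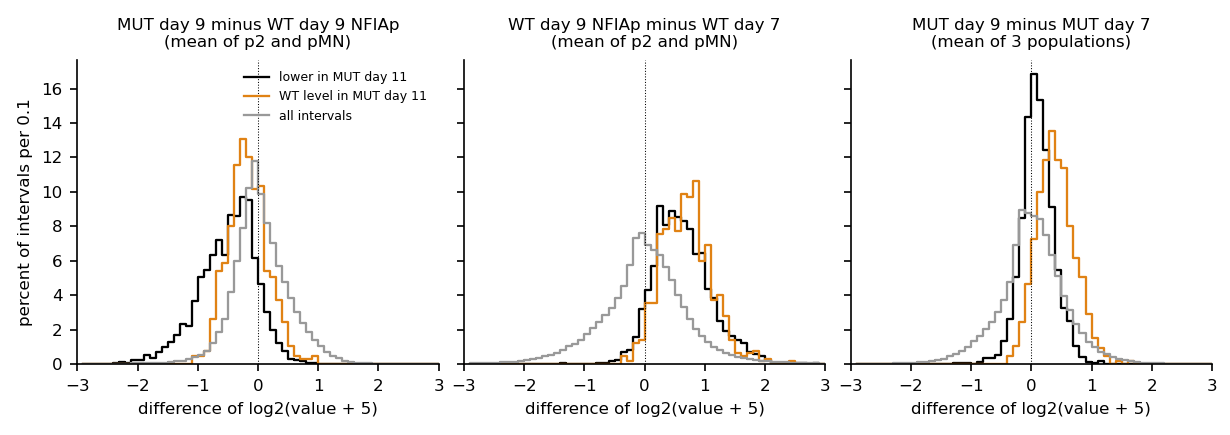
Distribution over intervals of 3 differences of log2(value + 5) (horizontal axis, in percent of intervals per 0.1 on the vertical axis) for late-opening intervals (black), the WT-level set (orange) and all intervals (grey). In the left panel, MUT minus WT NFIAp on day 9, the late-opening intervals are shifted below 0 with a median of -0.44; in the middle panel, WT day 9 NFIAp minus WT day 7, their median is 0.58; in the right panel, MUT day 9 minus MUT day 7, it is 0.10.

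Taken by population, 345 late-opening intervals (14.8%) were lower in MUT in p2 and 8 were higher, where the shares of all intervals were 2.07% and 6.89%. In pMN, 430 (18.4%) were lower and 2 were higher, where the shares of all intervals were 2.02% and 2.09% (limma, Benjamini-Hochberg adjusted). The count in p2 depends on the library taken to lie with pMN and on how the spread is estimated. Without the 3 doubted libraries it was 663 (28.4%, beside 4.29% of all intervals), and without WT p2 NFIAp replicate 2 alone it was 664. The WT-level set rose too in p2 without the doubted libraries, from 8 to 52 of 649 called lower (8.01%), with a median of -0.41. The p2 count of late-opening intervals was 162 without WT replicate 1 and 199 without MUT replicate 2. A fit of only the groups compared gave 9, beside 0.154% of all intervals. In pMN it was 179 without MUT replicate 2, 194 without WT replicate 1 and 442 without the doubted libraries. Over the mean of both populations it was 510 without the doubted libraries (21.8%, beside 2.42% of all intervals), with a median difference of -0.53, and 2 were then called higher in MUT. The WT-level set then had 9 of 649 called lower (1.39%), a median of -0.30 and 78.3% of its intervals below 0.

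Interval_77768 had the most negative difference on day 9 among intervals with a WT day 11 mean of at least 100 normalised reads. It had 6.65 and 6.51 normalised reads in MUT p2, against 71.4, 17.6 and 30.9 in WT p2 NFIAp. In pMN it had 5.92 and 6.14 in MUT, against 111, 67.7 and 61.2 in WT NFIAp. Every MUT library of these populations was below every WT NFIAp library, and the difference over both populations was -2.34 (SE 0.25; limma, adjusted p = 5.08e-11). Interval_92291, also one of the largest WT steps, had 4.75 and 7.44 normalised reads in MUT p2, against 109, 15.6 and 31.8 in WT p2 NFIAp. In pMN it had 11.8 and 4.39 in MUT, against 136, 48.6 and 38.8 in WT NFIAp. The difference was -2.23 (SE 0.29; limma, adjusted p = 1.6e-08), and again the genotypes did not overlap.

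The other named intervals of this kind began from a higher level, and in them MUT had dropped below its own early values. Interval_71977 had 38.0 and 36.3 normalised reads in MUT p2 on day 9, against 256, 112 and 236 in WT p2 NFIAp. In pMN it had 42.4 and 36.0 in MUT, against 257, 199 and 191 in WT NFIAp, a difference over both of -2.26 (SE 0.18; limma, adjusted p = 2.13e-15). On day 5 it had 89.8 to 488 normalised reads in MUT (median 225) and 63.5 to 278 in WT (median 117), and on day 7 36.8 to 146 in MUT (median 53.2) and 30.7 to 103 in WT (median 62.0). It was therefore open early, less open on day 7 in both genotypes, and high again on day 11 in WT, at 259 to 376, against 58.2 to 112 in MUT. Interval_108841 followed the same course. It had 39.3 to 149 normalised reads in MUT and 24.6 to 81.5 in WT on day 5, 3.51 to 21.2 in MUT on day 9, and 18.7 to 63.4 in MUT and 131 to 284 in WT on day 11. Its day 9 difference was -2.34 (SE 0.24; limma, adjusted p = 8.65e-12). Without the doubted libraries the differences of these 4 intervals lay between -2.63 and -2.44, and each was still called. In the NFIAn fraction of day 9, Interval_71977 had 67.0 to 157 normalised reads in WT, against 36.0 to 51.0 in MUT. Interval_108841 had 28.9 to 76.4 in WT NFIAn. In Interval_77768 and Interval_92291 the ranges of WT NFIAn and MUT on day 9 overlapped. The rule used these WT NFIAn libraries. It compared WT days 5 and 9 only, so an interval with a dip on day 7 could enter.

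Not every late-opening interval was ahead in WT NFIAp cells on day 9. Among intervals of the same minimum level, Interval_30123 had the most positive difference. It had 45.6 and 51.2 normalised reads in MUT p2, against 25.4, 31.1 and 16.9 in WT p2 NFIAp. In pMN it had 54.2 and 65.8 in MUT, against 33.9, 32.8 and 18.4 in WT NFIAp. MUT was the higher in every library, by 0.94 (SE 0.20; limma, adjusted p = 0.000182), which misses the size threshold of 1. Without the doubted libraries it was 1.02 (limma, adjusted p = 5.34e-05), which passes it. Interval_86787 had 73.2 and 107 normalised reads in MUT p2, against 68.6, 42.5 and 42.1 in WT p2 NFIAp, while pMN had 88.8 and 115 in MUT, against 55.2, 43.3 and 56.1 in WT NFIAp. Its difference was 0.84 (SE 0.20; limma, adjusted p = 0.00115). In Interval_6153 the higher MUT values were those of p2, with 59.9 and 78.2 in MUT, against 12.2, 22.8 and 24.4 in WT NFIAp, while pMN had 16.8 and 28.1 in MUT, against 28.1, 19.0 and 22.4 in WT NFIAp. All 3 were nevertheless at or above 63.5 normalised reads in every WT library of day 11.

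The WT side of the same step was read from day 7, a day the rule did not use. In WT, 451 late-opening intervals (19.3%) were higher in the day 9 NFIAp fraction than on day 7 over the mean of p2 and pMN, and 1 was lower, beside 6.65% and 7.84% of all intervals (limma, Benjamini-Hochberg adjusted). The median change was 0.58, and 93.1% of the late-opening intervals were above 0. The WT-level set had 142 of 649 (21.9%) called higher and a median of 0.69. By population, 402 (17.2%) were higher and 2 lower in p2, beside 6.68% and 7.89% of all intervals. In pMN 635 (27.2%) were higher and 5 lower, beside 8.26% and 9.3% of all intervals. Without the doubted libraries the count over both populations was 659 (28.2%, beside 8.28% of all intervals) with a median of 0.68, the WT-level set had 225 (34.7%), and the pMN count was 648 (27.7%, beside 8.84%). The p2 count was 750 without WT p2 NFIAp replicate 2 or without all doubted libraries (32.1%, beside 9.65% of all intervals), and 198 without its replicate 1. By the values alone, 346 late-opening intervals (14.8%) had every WT NFIAp library of day 9 above every WT library of day 7 in both populations, beside 8.39% of all intervals. Without the doubted libraries these were 744 (31.8%), beside 12.5% of all intervals. This comparison shares its WT NFIAp libraries with the comparison to MUT above. Day and NFIA fraction also change together in it.

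The size of the selected WT step went with the size of the day 9 differences. With the members split by their WT rise from day 9 to day 11 into 3 groups of 779, 778 and 779, from the smallest rise to the largest, the median MUT minus WT NFIAp difference on day 9 was -0.37, -0.41 and -0.59, with 77, 87 and 176 intervals called lower. The median WT change from day 7 to the day 9 NFIAp fraction was 0.45, 0.55 and 0.75 in the same groups, and the median MUT change from day 7 to day 9 was 0.06, 0.10 and 0.13. With the doubted libraries left out, the first of these medians was -0.44, -0.49 and -0.72, with 117, 150 and 243 called lower, and the WT change was 0.54, 0.66 and 0.88. The groups were made on values that the rule used, and no test was made between them.

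In MUT cells few late-opening intervals were called as changed between day 7 and day 9. Only 5 of 2336 were called higher and 4 lower on day 9, beside 3.85% and 4.11% of all intervals (limma over the mean of the 3 populations, Benjamini-Hochberg adjusted). The counts were 6 higher and 4 lower without the doubted libraries. At an unadjusted limma p under 0.05, 388 were higher and 85 lower, beside 41543 and 40532 of all 155734 intervals. By edgeR 57 were called higher (2.44%, beside 7.14% of all intervals) and 22 lower. The median interval held 6.65 to 7.70 normalised reads in MUT libraries of day 9, where the log2(value + 5) scale understates changes. The median change was 0.10, with 66.7% of the intervals above 0. The WT-level set had 21 of 649 called higher (3.24%), 0 called lower (0 at an unadjusted p under 0.05) and a median of 0.39. The 2 sets were told apart by MUT libraries of day 11, and no test was made between them. Against MUT day 5, the median change of the late-opening intervals on day 9 was 0.00. By day 11 the MUT mean stood above the MUT day 9 mean by a median of 0.28, and by 1.49 in the WT-level set; these values use the MUT day 11 libraries that chose the sets.

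The 5 intervals that rose in MUT between day 7 and day 9 include 3 with a WT day 11 mean of at least 100 normalised reads and the largest changes. Interval_142950 had 28.6 to 38.1 normalised reads in MUT on day 9 (median 32.1, 6 libraries), against 6.69 to 18.2 on day 7 (median 11.1, 9 libraries). No MUT library of day 7 reached the level of day 9, and the change was 1.18 (SE 0.19; limma, adjusted p = 9.03e-07). On day 11 it had 80.3 to 161 in MUT and 233 to 447 in WT. Interval_32987 had 24.6 to 65.1 on day 9 in MUT, against 9.98 to 21.2 on day 7, a change of 1.18 (SE 0.19; limma, adjusted p = 3.39e-07). Interval_18158, the highest of the named intervals, had 129 to 277 on day 9 in MUT, against 51.0 to 105 on day 7, a change of 1.13 (SE 0.17, limma, adjusted p = 1.04e-07). On day 5 it had held 132 to 286 in MUT, so its day 9 values were near those of day 5. It rose further in MUT, to 354 to 860 on day 11, against 1027 to 2361 in WT, so it is a partial opener rather than a closed site. The other intervals called higher were Interval_35028 and Interval_109573, and the 4 called lower were Interval_59875, Interval_64439, Interval_97372 and Interval_145064. These 6 were named because the counts are small. Interval_109573 had also fallen in MUT from day 5 to day 7, by 1.09, before it rose by 1.18.

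**Figure D4:**
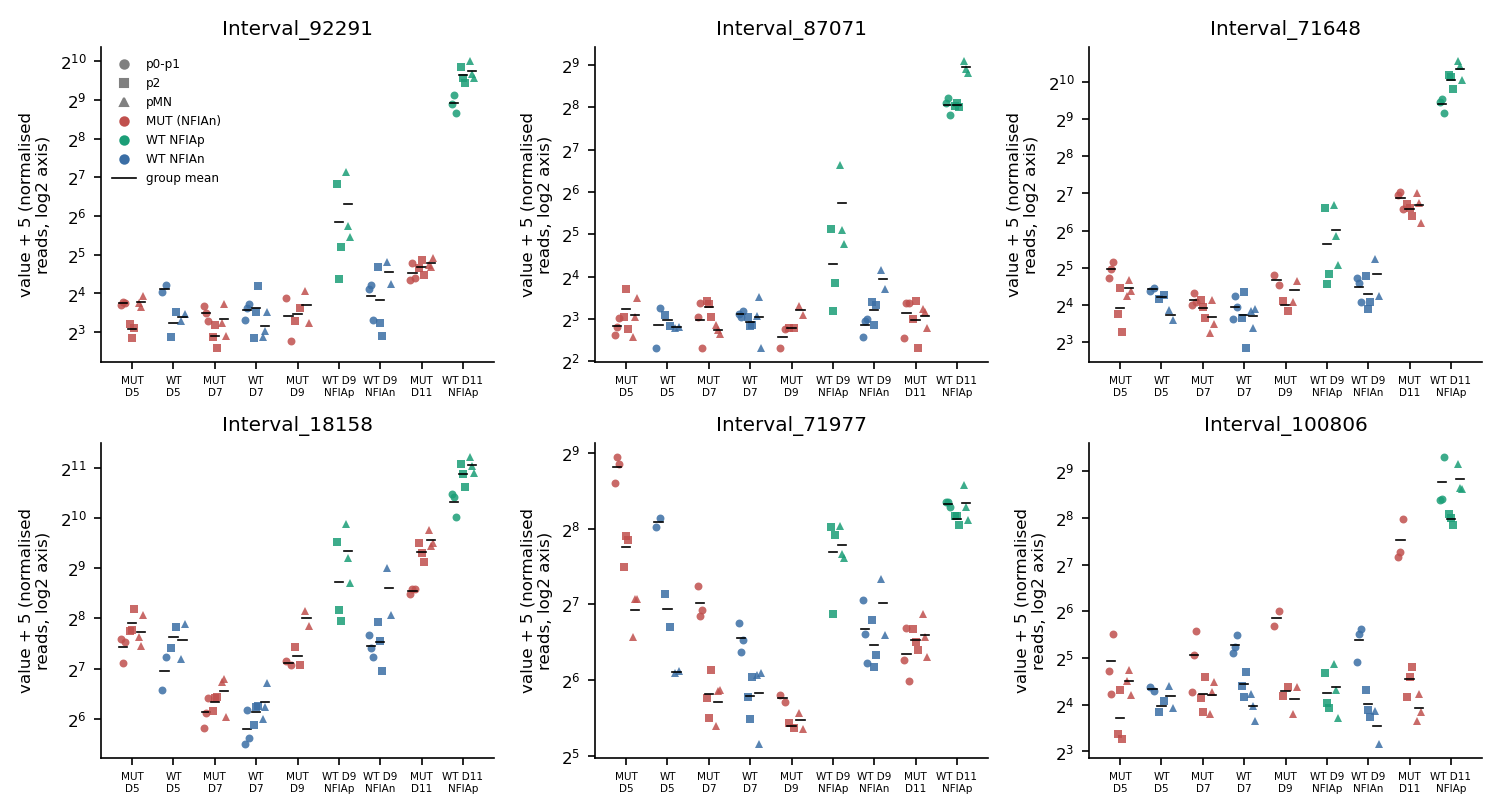
Normalised reads plus 5 (log2 axis) in every library for 6 named late-opening intervals, by day with MUT left of WT; marker shape gives the population, colour the genotype and NFIA fraction, and black bars the group means. Interval_87071 stays at or below 7.96 normalised reads in every MUT library, Interval_18158 opens in part in MUT by day 11, Interval_71977 is open on day 5, and Interval_100806 is raised on day 11 in MUT p0-p1, above its day 9 values there.

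No late-opening interval was called different between the genotypes on day 7. In numbers, 0 of 2336 were called lower and 0 higher in MUT than in WT, beside 0.00835% and 0.0199% of all intervals (limma over the mean of the 3 populations, Benjamini-Hochberg adjusted). At an unadjusted limma p under 0.05, 80 were lower and 131 higher, beside 13261 and 18926 of all 155734 intervals. By edgeR 2 were called lower, beside 0.0514% of all intervals. The median difference was 0.01, and without the doubted libraries, of which 1 MUT and 1 WT library are day 7 pMN, 1 was called, as higher in MUT. A p that misses the threshold does not show equal accessibility, and at 5.41 to 7.96 normalised reads for the median interval of a day 7 library, counting error alone is 35.5% to 43.0%.

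Between day 5 and day 7 the MUT values of late-opening intervals changed little. In MUT, 3 were called higher and 20 lower on day 7, beside 7.28% and 4.49% of all intervals (limma, Benjamini-Hochberg adjusted), and the median change was -0.10. The number called higher was 5 without MUT p2 replicate 1, 5 without MUT pMN replicate 3 and 5 without the doubted libraries. In WT the median change was likewise -0.10. The WT mean of day 7 lay within 0.5 of day 5 in 2082 intervals (89.1%), at least 0.5 below it in 228 and at least 0.5 above it in 26, and in MUT 241 lay at least 0.5 below. Interval_71977, Interval_108841 and Interval_18158 above are among the 20 that fell in MUT, with changes of -1.65, -1.56 and -1.35.

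The day 9 differences in p2 and in pMN went partly together. Across the 2336 intervals, the MUT minus WT NFIAp difference of day 9 in p2 and in pMN had a Pearson r of 0.62; each axis rests on few libraries, same-numbered libraries deviate together, and intervals are not independent replicates. The WT change from day 7 to the day 9 NFIAp fraction had an r of 0.66, and the MUT change from day 7 to day 9 had an r of 0.33. Leaving out the doubted libraries gave 0.64, 0.64 and 0.32. A test of whether the MUT minus WT NFIAp difference itself differed between the populations, added after the data were seen, called 3 intervals as higher in p2 and 0 as lower, beside 0.304% and 0.0238% of all intervals (limma, Benjamini-Hochberg adjusted). For the WT change the same test called 3 as larger in p2 and 1 as smaller, beside 0.335% and 0.198% of all intervals. With the doubted libraries left out, the first test called 1, as lower in p2, and the second 3, as larger. The shares of all intervals in these directions were then 0.0578% and 0.0552%.

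**Figure D5:**
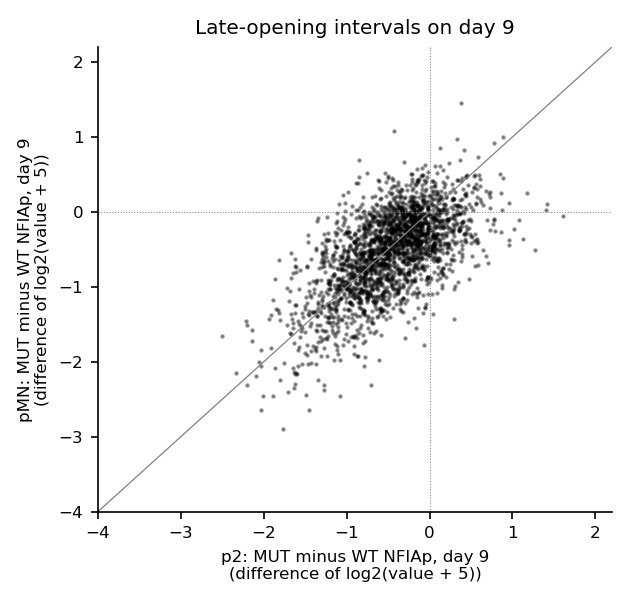
Difference MUT minus WT NFIAp on day 9 in pMN (vertical axis) against the same in p2 (horizontal axis), each a difference of log2(value + 5), with 1 point per late-opening interval, a grey line of equality and dotted lines at 0. Most points lie below 0 on both axes, with 83.0% below 0 in p2 and 85.4% in pMN.

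Within WT NFIAp cells of day 9, 9 late-opening intervals were lower and 4 were higher in p2 than in pMN, beside 0.43% and 0.359% of all intervals (limma, Benjamini-Hochberg adjusted). Replicate numbers pair these libraries, and with the number as a block within these groups 0 were called. A fit of only these groups without the block also called 0. The total of 13 became 83 without the doubted libraries, 84 without p2 replicate 2 alone, 71 without p2 replicate 1, 0 without p2 replicate 3 and 6 without pMN replicate 1, so no number can be given for this comparison. The 83 were 3.55% of the late-opening intervals, beside 3.54% of all intervals. Interval_87071 had 30.1, 4.15 and 9.37 normalised reads in p2 and 94.0, 29.6 and 22.4 in pMN, a difference of -1.45 (SE 0.34; limma, adjusted p = 0.0123). Replicate 1 was the highest in both populations, and in each replicate pMN was above p2. Interval_135411 had 60.1, 16.6 and 15.9 in p2 and 138, 58.1 and 52.0 in pMN, a difference of -1.38 (SE 0.36; limma, adjusted p = 0.0303). In MUT on day 9 it had 4.75 and 7.44 normalised reads in p2 and 8.88 and 10.5 in pMN, all below the lowest WT NFIAp library. Both calls are lost under the block, and without the doubted libraries their adjusted p was 0.0712 and 0.0811 (limma).

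The late-opening intervals were also compared among the 3 populations on days whose populations the rule did not set against each other. The rule kept the WT populations of day 11 within 1 of each other, so low shares elsewhere were favoured by the selection. On day 7 in WT, 72 (3.08%) differed among p0-p1, p2 and pMN, beside 12% of all intervals (limma F-test, called at a range of 1 or more and an adjusted p below 0.05), and the count was 72 with the replicate number as a block within these groups and 83 (3.55%, beside 12.3%) without the doubted libraries. In MUT 80 (3.42%) differed on day 9, beside 11.4% of all intervals. The count was 49 without pMN replicate 1 and 117 (beside 13.7% of all intervals) with the block within these groups. In MUT on day 11, whose mean over populations the rule used, 146 (6.25%) differed, beside 15.2% of all intervals. The WT-level set, chosen under the same limit, had 5.08% called in WT on day 7. In MUT it had 4.93% on day 9 and 15.6% on day 11. The late-opening intervals lie at low values on these days, with a median interval of 6.65 to 7.70 normalised reads in MUT libraries of day 9, and the part of these low values in the shares was not tested. No test was made of the shares against each other.

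Of the 146 intervals that differed in MUT on day 11, p0-p1 was the highest population in 96, pMN in 34 and p2 in 16. The same split over all intervals called on that day was not counted, so it cannot be read as particular to the late-opening intervals. The largest range belonged to Interval_100806, which had 139, 150.4 and 247 normalised reads in MUT p0-p1, against 328, 334 and 625 in WT p0-p1. In p2 it had 13.1, 19.1 and 22.9 in MUT, against 266, 249.5 and 226 in WT. In pMN the values were 7.63, 13.7 and 9.33 in MUT, against 569, 397 and 387 in WT. MUT p0-p1 stood above its day 9 values of 46.2 and 59.8, and no MUT library reached a WT library of the same population. Interval_57437 had no such gap in p0-p1. It had 108, 99.4 and 158 in MUT p0-p1, against 108, 92.5 and 197 in WT p0-p1, so the genotypes overlapped there. In p2 it had 33.2, 31.5 and 27.5 in MUT, against 132, 94.0 and 91.5 in WT, and in pMN 26.1, 17.6 and 18.7 in MUT, against 90.6, 70.5 and 65.0 in WT. It was also high in p0-p1 on days 5 to 9 in both genotypes, with 70.5 to 134 normalised reads in every such library. Interval_7969 had the same form, with 145, 125 and 182 in MUT p0-p1, against 127, 125 and 232 in WT p0-p1. Such intervals entered the list through p2 and pMN, because the rule averaged the populations.

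The likeness of other intervals to the list was read from the 26 group means. Among intervals outside the list, Interval_99137, Interval_144775, Interval_52583, Interval_110593 and Interval_155513 had the profiles closest to the median profile of the late-opening intervals, with Pearson r of 0.987 to 0.990 over the 26 groups. The members themselves had a median r of 0.926. Interval_99137 and Interval_155513 missed the list by a WT rise of 0.77 and 0.75 between day 5 and day 9, and the other 3 by a range of 1.03 to 1.17 among the WT populations of day 11. All 5 lay 3.98 to 4.68 below WT in MUT on day 11, so the list is a part of a larger set with this course.

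The numbers of the members were spread along the table. They ran from number 3 to number 155415, each of 10 equal stretches of the numbering held 221 to 252 of them, and 46 pairs had consecutive numbers, with no run longer than 2. In 3 blocks of consecutive numbers there were 168, 162 and 12 members, and 1994 (85.4%) lay outside them, beside 86.0% of all intervals. Over all intervals the median MUT minus WT difference on day 11 was -0.12, -0.14 and 0.25 in the blocks, and 0.07 outside them. Whether the shift in each block goes with genotype or with replicate was not tested. Outside the blocks 283 members (14.2%) were called lower in MUT than in WT NFIAp on day 9, beside 1.59% of all intervals outside them. Whether the numbers follow genome order was not tested.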

How the data were processed

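The authors deposited 1 table of normalised signal values: reads per consensus interval, scaled by a size factor for each library. Per the submitters' processing notes the genome build was mm10. Which aligner, peak caller and counter were used is not given in the sources used here. Whole reads could be recovered from the values, within a tolerance of 0.01 for 100% of them. For MUT p2 D11 replicate 1 and WT pMN D9 NFIAn replicate 2 the scaling was too close to 1 to be shown this way. Each column carries the name of its library, and 0 columns lacked a sample. Reads of 1 library can be copies of the same molecule, so counting errors cover counting only.

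Late-opening intervals were tested on log2(value + 5), a scale that understates changes of low intervals. All 71 libraries entered 1 limma fit (limma 3.58.1, R 4.3.3) with a mean for each of the 26 groups, which left 45 degrees of freedom; the prior variance followed the mean. An interval was tested where 2 or more libraries had 10 or more normalised reads. A call needed a log2 difference of 1 or more and a Benjamini-Hochberg adjusted p below 0.05 over the whole table. The fit takes libraries as independent. It was tested on simulated counts with known changes, placed only in intervals at or above the median mean level, with libraries drawn independently. On day 9 the median late-opening interval lay below the median of all intervals. The simulation does not cover changes at such low values. The members, lists and tests were chosen with earlier results of these data known. Named intervals followed a rule: the largest described differences among members with a WT D11 mean of 100 or more, the intervals next to a threshold, and the 5 outside the list with the most similar profile. Exceptions are marked where they are named. Alternatives were a pseudocount of 1, one of 20, equal library totals, all intervals without the filter, quality weights for libraries and quantile normalization. Others were a fit of only the groups compared, each library left out in turn, a replicate block and no doubted libraries. The last were no members in the 3 blocks of consecutive numbers, and edgeR 4.0.16 on the recovered reads. Figures were drawn with matplotlib 3.10.9.

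Replicate numbers were taken to pair libraries where, with 3 or more same-numbered pairs, every pair had a residual correlation over 0.1. That held for p2 and pMN of WT D9 NFIAp (0.16 to 0.43), for the WT D7 populations (0.17 to 0.41) and for the MUT D9 populations (0.22 to 0.34), which hold only 2 replicate numbers. With the replicate block within these groups, 0 late-opening intervals were called between p2 and pMN, beside 0 of all intervals. Among the WT D7 populations 72 were called (beside 12.1% of all intervals), and 117 among the MUT D9 populations (beside 13.7%).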

Additional observations from a re-analysis of the deposited data

Results flagged for a closer look

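The change of 7 late-opening intervals differed between p2 and pMN by the added test of that difference (limma, Benjamini-Hochberg adjusted). All of them use the WT p2 NFIAp group that holds the library taken to lie with pMN. Without the 3 doubted libraries, Interval_116240 (adjusted p = 0.00836) and Interval_69650 (adjusted p = 0.0286) were still called, and the other 5 had adjusted p of 0.0681 to 0.245.

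For MUT minus WT NFIAp on day 9, Interval_67052 had 9.50 and 12.1 normalised reads in MUT p2, against 11.3, 6.22 and 6.56 in WT p2 NFIAp. MUT pMN had 0 and 1.76, against 16.5, 9.51 and 7.14 in WT NFIAp. Its difference in p2 exceeded that in pMN by 1.72 (adjusted p = 0.0396), at levels of a few reads. Interval_140325 had 170.1 and 194 in MUT p2, against 436, 177 and 279 in WT p2 NFIAp. MUT pMN had 82.9 and 86.9, against 431, 344 and 285 in WT NFIAp, an excess of 1.37 (adjusted p = 0.0394). Interval_151317 had 422 and 533 in MUT p2, against 355, 160 and 245 in WT p2 NFIAp. MUT pMN had 186 and 202, against 326, 219 and 224 in WT NFIAp, an excess of 1.33 (adjusted p = 0.0245). It was higher in MUT p2 in each library and lower in MUT pMN in each.

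For the WT change from day 7 to the day 9 NFIAp fraction, Interval_116240 had 84.6, 205 and 89.0 in p2 on day 9, against 57.4, 75.9 and 68.5 on day 7, and 132, 135 and 112 in pMN on day 9, against 239.9, 331 and 293 on day 7. The change in p2 exceeded that in pMN by 1.90 (adjusted p = 0.000155). For Interval_69650 the excess was 1.84 (adjusted p = 0.0275) and for Interval_88459 it was 1.60 (adjusted p = 0.0274). Interval_74839 went the other way, with -1.89 (adjusted p = 0.0254): it had 104, 11.4 and 29.97 in p2 on day 9, against 35.7, 46.3 and 58.6 on day 7, and 60.1, 26.4 and 28.6 in pMN on day 9, against 6.89, 7.42 and 14.2 on day 7. In p2 its replicates on day 9 spread more than the change.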

How the results depend on the processing

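Counts of calls depended on the pseudocount and the test. Each share of members below stands beside the share of all intervals in the same setting. With a pseudocount of 1, 662 late-opening intervals over both populations were called lower in MUT D9 than in WT D9 NFIAp (28.3% beside 3.02%). Those called higher in WT D9 NFIAp than in WT D7 numbered 965 (41.3% beside 10.9%). They numbered 638 in p2 (27.3% beside 9.39%) and 973 in pMN (41.7% beside 11.8%). In MUT, 51 were higher in D9 than D7 (2.18% beside 6.99%) and 15 in D7 than D5 (0.642% beside 10.9%). Lower in MUT D7 than WT D7 were 3 (0.128% beside 0.0578%), and 164 differed among WT D7 populations (7.02% beside 14.5%). With a pseudocount of 20 the counts were 73 (65 in p2, 106 in pMN) for MUT D9 below WT D9 NFIAp, 112 (95 in p2, 163 in pMN) for WT D9 NFIAp above WT D7, 0 for MUT D9 above MUT D7 by limma, 1 for p2 against pMN in WT D9 NFIAp, 33 among MUT D11 populations, 16 among MUT D9 and 21 among WT D7. With edgeR 800 were called for MUT D9 below WT D9 NFIAp (34.2% beside 3.76%), and 566 in p2 (24.2% beside 3.69%). For WT D9 NFIAp above WT D7 it called 1072 (45.9% beside 11.9%), and 759 in p2 (32.5% beside 10.8%). It called 57 for MUT D9 above MUT D7 (2.44% beside 7.14%) and 23 for MUT D7 above MUT D5 (0.985% beside 11.6%). For MUT D7 below WT D7 there were 2 (0.0856% beside 0.0514%), and for p2 against pMN 32 (1.37% beside 1.55%). The cause was not tested. The median member interval held 5.41 to 7.96 normalised reads in day 7 libraries.

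A fit of only the groups compared gave 9 for MUT D9 below WT D9 NFIAp in p2 (0.385% beside 0.154%). It gave 266 for WT D9 NFIAp above WT D7 in p2 (11.4% beside 5.65%). For p2 against pMN it gave 0, beside 0 of all intervals (limma). Without the libraries that go against their labels the counts were 663 and 750 for the same p2 comparisons, 5 for MUT D7 above MUT D5 and 83 for p2 against pMN. Quantile normalization gave 20 for p2 against pMN (0.856% beside 1.07%), and equal library totals gave 8 for MUT D9 above MUT D7 (0.342% beside 4.95%). With the replicate number as a block within the groups, p2 against pMN gave 0, beside 0 of all intervals. The replicate block across all libraries gave 367 for MUT D9 below WT D9 NFIAp (15.7% beside 1.86%) and moved no count by over 1.5 times.

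Leaving out 1 library at a time gave 230 to 510 for MUT D9 below WT D9 NFIAp (162 to 664 in p2, 179 to 503 in pMN), 324 to 661 for WT D9 NFIAp above WT D7 (198 to 750 in p2, 424 to 776 in pMN), 4 to 6 for MUT D9 above MUT D7, 3 to 5 for MUT D7 above MUT D5, 0 to 0 for MUT D7 below WT D7, 0 to 84 for p2 against pMN, 124 to 162 among MUT D11 populations, 49 to 85 among MUT D9 and 75 to 91 among WT D7. The shares of all intervals with 1 library left out are not given here. The number of members was 2005 to 2823 without 1 library at a time, highest without WT D11 p0-p1 replicate 3. Under other pseudocounts and scalings it was 1635 to 2254. Of the 1635 members with a pseudocount of 20, 933 were on the list used here. The median difference of the members stayed between -0.83 and -0.22 for MUT D9 minus WT D9 NFIAp and between 0.29 and 0.99 for WT D9 NFIAp minus WT D7 in every setting tried. It crossed 0 for MUT D7 minus WT D7 (-0.01 to 0.04) and for p2 minus pMN in WT D9 NFIAp (-0.27 to 0.12).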
